A study of Mus musculus with 6 samples.

Results

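The regions described here are 217 dense groups of Jun peaks on the mouse autosomes. Jun peaks from rib chondrocytes were sorted by midpoint, neighbouring midpoints at most 10 kb apart were chained together, and the chains of 20 to 49 peaks were kept. They are 217 of the 37573 such chains on the 19 autosomes, lone peaks counted as chains of 1, and of 38356 on all chromosomes. They contained 5923 of the 97800 autosomal peaks (6.06%). The groups were chosen by measured values, the number of peaks and their spacing, so these 2 measures and the span are given below as a description. Peak width and the place of a peak in the deposited list were not used to choose them.

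The peaks came from 1 ChIP-seq library, an assay that sequences DNA recovered with an antibody, here against Jun. Chondrocytes were isolated from rib cartilage of untreated wild-type ICR mice on postnatal day 1, and a library of input DNA from the same kind of cells was prepared beside it. The series also has 4 RNA-seq samples of sorted Col10a1mCherry chondrocytes from Swiss Webster mice, which were not analysed here. The deposited list gives positions on the mm9 build for 99162 peaks and no height or score, and the read depth is unknown. The labels name no sort for this library and no number of animals. Whether other cells of the rib were present was not tested, because a list of positions holds no marker gene levels. With 1 Jun library there is no replicate, so no difference below was tested. The 95% intervals cover counting error over the peaks or groups of this list and not variation between animals. Intervals over peaks take the peaks of a group as independent, so they are too narrow where peaks of a group resemble each other.

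Jun is a subunit of AP-1, a dimer of Jun, Fos and related basic leucine zipper proteins that binds a short palindromic DNA motif. AP-1 is known to act at many enhancers away from gene starts, and stretches with many binding sites in close neighbourhood are often found at genes that are strongly active in a cell type. In cartilage, Jun and Fos proteins are known for their part in the change from dividing to enlarged, hypertrophic chondrocytes. The study asked how AP-1 factors and Sox9, the main transcription factor of cartilage, act on this change. Which genes lie at the 217 groups, and which motifs their peaks hold, was not determined, since no mm9 sequence or gene positions were used.

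Small groups were the most frequent. There were 99 groups with 20 to 24 peaks (45.6%), 48 with 25 to 29, 55 with 30 to 39 and 15 with 40 or more, and the median was 26 peaks. Just outside the lower limit were 33 chains of 19 peaks, with a median span of 40.2 kb, and just inside it 22 chains of 20 peaks, with 51.4 kb. At the upper end 1 chain had 48 peaks, none had 49 and 3 had 50. The median width of the peaks was 119 bp in chains of 19 and 114.5 bp in chains of 20, taken as the median over chains. The limits thus divide a continuous range of sizes. The number of groups moved strongly with the chaining distance, to 68 at 5 kb and 609 at 20 kb.

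Most groups were between 30 and 75 kb long. The span from the first peak's start to the last peak's end had a median of 57.5 kb (95% interval of the median 54.8 to 62.2 kb), with the central 50% of groups between 46.3 and 70.9 kb. Spans ran from 18.0 to 142 kb, and 145 of 217 groups (66.8%) reached 50 kb while 10 reached 100 kb. Together the groups spanned 13.1 Mb, or 0.545% of the summed distance between the first and last peaks of the autosomes. They held 453 peaks per Mb, 11.1 times the autosomal mean of 40.7 per Mb, a contrast that the choice of the groups sets. The peaks themselves occupied 6.75% of this sequence, so that most of each group lay between peaks. In single groups the covered part ran from 2.73% to 22.5%.

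**Figure D1:**
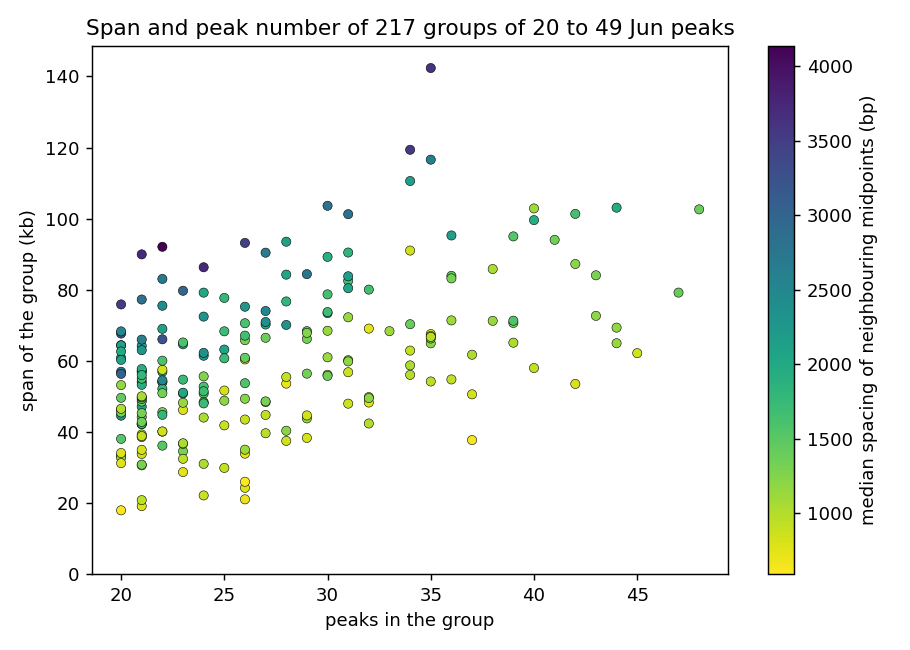
Span in kb against the number of peaks for each of the 217 groups (1 point each), coloured by the median distance between neighbouring midpoints in bp. Groups of 20 to 24 peaks are the most frequent, and longer groups tend to have the wider spacing (Spearman's rho 0.57); the longest, at 142 kb, has 35 peaks.

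The 10 groups with the most peaks were spread over 7 chromosomes, 4 of them lying on chromosome 2. The last place was shared by 3 groups of 42 peaks, of which the one on chromosome 13 is given with that chromosome. The fullest contained 48 peaks over 103 kb on chromosome 7 (29664260 to 29766860), and the next 47 peaks over 79.2 kb on chromosome 9 (92432681 to 92511879). On chromosome 2, 45 peaks lay in 62.2 kb (173045124 to 173107300), 44 in 69.3 kb (164226190 to 164295537), 44 in 65.0 kb (168342354 to 168407315) and 42 in 87.2 kb (32701642 to 32788884). Chromosome 4 had 44 peaks in 103 kb (150150199 to 150253283). The remaining 3 were on chromosome 3 with 43 peaks (88268460 to 88341117), on chromosome 18 with 43 (60751676 to 60835737) and on chromosome 1 with 42 (161967306 to 162020817). Of these 10, the group on chromosome 1 was the most compact, at 53.5 kb.

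Groups with the same number of peaks differed in extent: the 22 groups of 20 peaks spanned 18.0 to 75.9 kb and the 8 groups of 35 peaks 54.2 to 142 kb. The shortest span was 18.0 kb, for 20 peaks on chromosome 9 (41386007 to 41403981), and 15 of these 20 fell into 1 window of 10 kb. It was followed by groups of 19.2 kb on chromosome 5 (125483788 to 125502950, 21 peaks), 20.8 kb on chromosome 10 (76095447 to 76116284, 21 peaks), 21.1 kb on chromosome 2 (117935982 to 117957045, 26 peaks) and 22.2 kb on chromosome 8 (110065808 to 110087967, 24 peaks). The group on chromosome 2 had 17 peaks within 10 kb, the highest such number in any of the 217. At the other end, 35 peaks on chromosome 9 (107436212 to 107578555) stretched over 142 kb with at most 5 in any 10 kb. Next came 3 groups on chromosome 6, of 119 kb (137431471 to 137550831, 34 peaks), 117 kb (114778174 to 114894758, 35 peaks) and 111 kb (144049461 to 144160039, 34 peaks). The remaining one of the 5 longest covered 104 kb on chromosome 14 (121527174 to 121630784, 30 peaks).

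Inside the groups, neighbouring midpoints were most often 0.3 to 2 kb apart. The median of 5706 distances was 1306 bp, with the central 50% between 613 and 3221 bp. Distances of 300 to 500 bp made up 13.2%, those of 500 to 1000 bp 22.8%, those of 1 to 2 kb 20.4% and those of 2 to 5 kb 24.1%. Distances of 5 kb or more made up 13.9%, and 1.40% were under 200 bp. In 164 cases (2.87%) a peak overlapped the one before it. By comparison, the median distance was 1674.5 bp inside autosomal chains of 5 to 19 peaks and 940 bp inside chains of 50 or more. Short distances, under 300 bp, had nearly the same share in these 3 kinds of chain (5.97%, 5.61% and 6.61% for 5 to 19, 20 to 49 and 50 or more peaks). Chaining at 10 kb sets part of these differences.

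**Figure D2:**
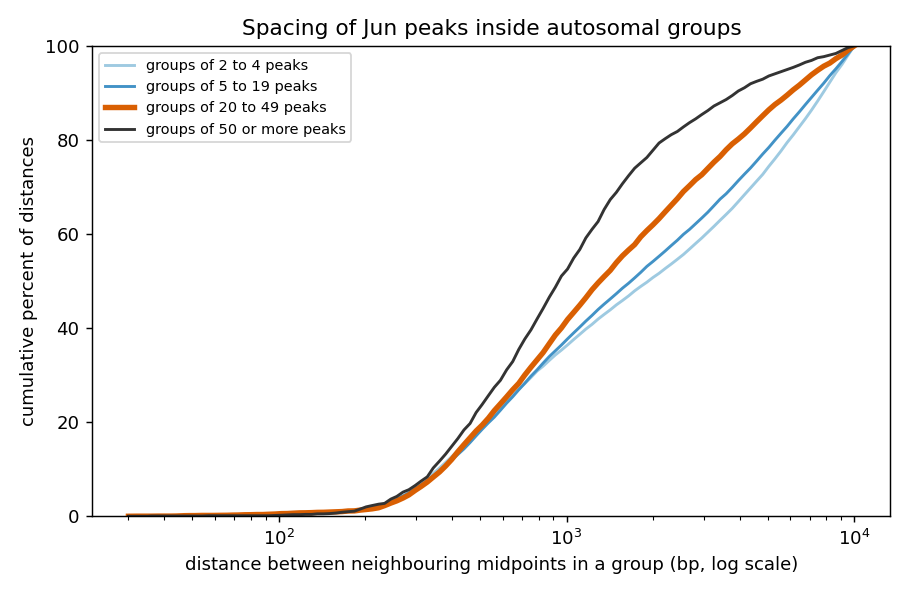
Cumulative percentage of distances between neighbouring midpoints (bp, log scale) inside autosomal chains of 2 to 4, 5 to 19, 20 to 49 and 50 or more peaks. The curves run together up to about 300 bp and then fan out, with medians of 1924.5, 1674.5, 1306 and 940 bp in that order.

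Tight and loose groups could be told apart by their own median distance, which ran from 589 to 4135 bp with a median of 1349.5 bp. It was under 1000 bp in 53 groups (24.4%) and under 2000 bp in 168 (77.4%). The tightest was a group of 26 peaks on chromosome 16 (92674378 to 92700377) with 589 bp. The 20 peaks on chromosome 9 from 41386007 followed with 629 bp, then groups on chromosome 2 with 637 bp (145604735 to 145642463, 37 peaks), chromosome 5 with 677 bp (122257209 to 122307023, 32 peaks) and chromosome 6 with 709.5 bp (135312697 to 135366300, 28 peaks). The loosest contained 22 peaks on chromosome 2 (101810251 to 101902329) with 4135 bp. Behind it came 20 peaks on chromosome 4 with 4074 bp (107261388 to 107325786), 24 on chromosome 1 with 3730 bp (137359364 to 137445681), 21 on chromosome 10 with 3713 bp (93929140 to 94019085) and the longest group, on chromosome 9, with 3628 bp. Over the 217 groups, span rose with median distance at a Spearman's rho of 0.57 and with the number of peaks at 0.49, as their construction implies, and peak number against median distance gave -0.22.

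Most groups, 202 of 217, had an inner distance over 5 kb. When distances over 5 kb were taken as breaks, 15 groups (6.91%) stayed whole, 24 fell into 2 pieces, 31 into 3, 51 into 4 and 96 (44.2%) into 5 or more. The largest piece held a median of 50% of a group's peaks, and in 49 groups it still had 20 or more. In another 49 no piece reached 10 peaks. The largest inner distance exceeded 9 kb in 89 groups (41.0%), close to the chaining limit; 70 of these had 1 such distance and 19 had 2 or more. The longest group, on chromosome 9, fell into 15 pieces of at most 6 peaks, several of them a single peak. By contrast, the 37 peaks on chromosome 2 from 145604735 had no inner distance above 3037.5 bp and stayed whole.

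The peaks of a few groups show what these numbers look like on the chromosome. In the shortest group (chromosome 9, from 41386007) the first peak, of 102 bp, was followed after 1911 bp by one of 98 bp. The next 8 distances measured 245 to 807.5 bp, up to a peak of 113 bp at 41391899. A wide peak of 466 bp stood near the middle (41394868 to 41395333) and a pair of 304 bp each at 41397082 and 41397590, while the last peak measured 7 bp. In the fullest group (chromosome 7) a block of 16 peaks in 17.5 kb (29678750 to 29696211) and one of 10 peaks in 9.86 kb (29737738 to 29747592) held 26 of the 48 peaks. Between them lay 2 overlapping peaks of 388 and 416 bp at 29715569 and 29715818, the widest of that group. The tightest group (chromosome 16) began with 20 peaks in 15.1 kb, among them overlapping peaks of 437, 497 and 382 bp from 92679290 to 92680376, and ended, after a distance of 6575 bp, with 6 peaks of 97 to 151 bp.

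**Figure D3:**
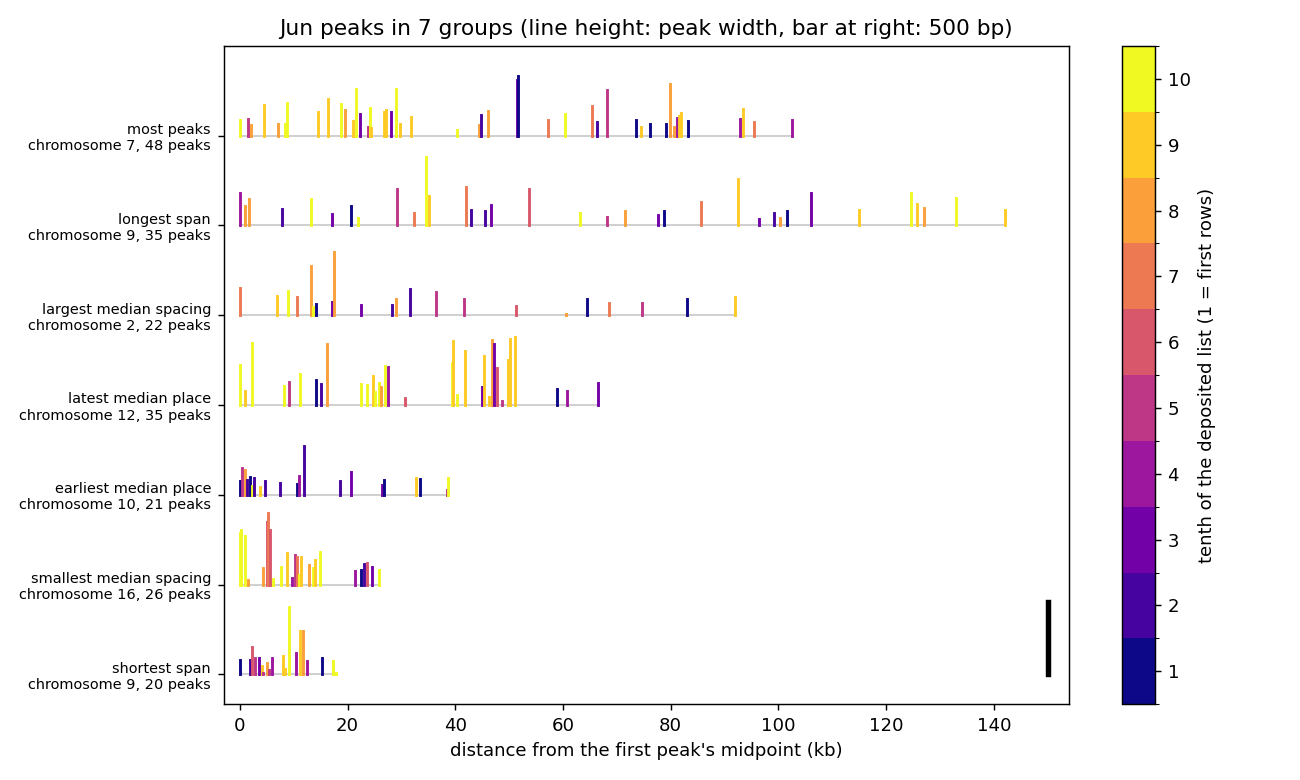
Peaks of 7 groups by distance from the first midpoint in kb, 1 row per group; line height is the peak's width (the bar at the right marks 500 bp) and colour is the 10% section of the deposited list in which it stands. The shortest group, on chromosome 9, is 1 block of 18.0 kb, the longest, also on chromosome 9, is a string of separate peaks over 142 kb, and early and late rows stand side by side in each.

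Pooled over the groups, neither the ends nor the middle held more peaks. The 5 equal parts of the span held between 19.1% and 20.9% of all 5923 peaks, while in single groups the fullest 10 kb held 14.3% to 75% of the peaks (median 34.2%). Wide peaks, of 200 bp or more, were 22.8% of the peaks in the middle 20% by order along the group, and 19.2% and 19% in the first and the last 20%. Peaks at the 2 ends of a group had 200 bp or more in 16.6% of 434 cases (13.2 to 20.4%), against 21.2% of 5489 inner peaks (20.1 to 22.3%), and these intervals overlapped slightly. Sequence beyond the ends mostly held further peaks. The next peak on the nearer side lay a median of 12.5 kb from the outermost midpoint, within 12 kb for 85 groups (39.2%) and within 20 kb for 187 (86.2%). Chaining keeps this distance above 10 kb, and taking the nearer side shortens it. On the left and the right alone the medians were 15885.5 and 16144 bp. A stretch of more than 50 kb without a peak on both sides was found for 2 groups, 1 on chromosome 1 (153190150 to 153218881) and 1 on chromosome 18 from 46756763; these were picked out after their values were seen.

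All 19 autosomes carried such groups, in unequal numbers. Chromosome 2 had 19 groups, chromosome 11 had 18 and chromosomes 1 and 8 had 16 each, while chromosomes 12 and 13 had 3 each. Per 10 Mb between the first and last peaks, chromosome 19 had 1.72 groups (95% interval 0.826 to 3.17), chromosome 11 had 1.52 (0.899 to 2.40) and chromosome 15 had 1.50 (0.839 to 2.47). Chromosome 12 had 0.254 (0.0524 to 0.743) and chromosome 13 had 0.256 (0.0528 to 0.748). The intervals of chromosomes 12 and 13 thus stayed below those of chromosomes 11, 15 and 19 and overlapped all others. Which autosome was densest changed to chromosome 11 or 10 under some chaining settings.

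The share of groups could be set beside the share of all peaks. Chromosome 12 held 1.38% of the groups (0.286 to 3.99%) and 4.07% of the autosomal peaks, and chromosome 13 held 1.38% of the groups and 4.82% of the peaks. On the other 17 autosomes the share of peaks lay within the interval of the share of groups. Chromosome 13 had 40.2 peaks per Mb, as many as chromosome 18 with 40.1, which had 7 groups. Chromosome 14, with the lowest peak density of 33.3 per Mb, still had 10 groups, or 0.864 per 10 Mb (0.414 to 1.59), an interval that overlaps that of chromosome 13. Over the 19 autosomes groups per 10 Mb and peaks per Mb were correlated (Spearman's rho 0.66, Pearson's r 0.76), a description in which both measures count the same peaks. Of a chromosome's own peaks, the part lying in the groups ran from 2.11% on chromosome 12 (1.69 to 2.61%) and 2.31% on chromosome 13 (1.90 to 2.78%) to 8.98% on chromosome 19 (8 to 10.1%). Intervals of such shares are too narrow, because a group adds 20 or more peaks at once.

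**Figure D4:**
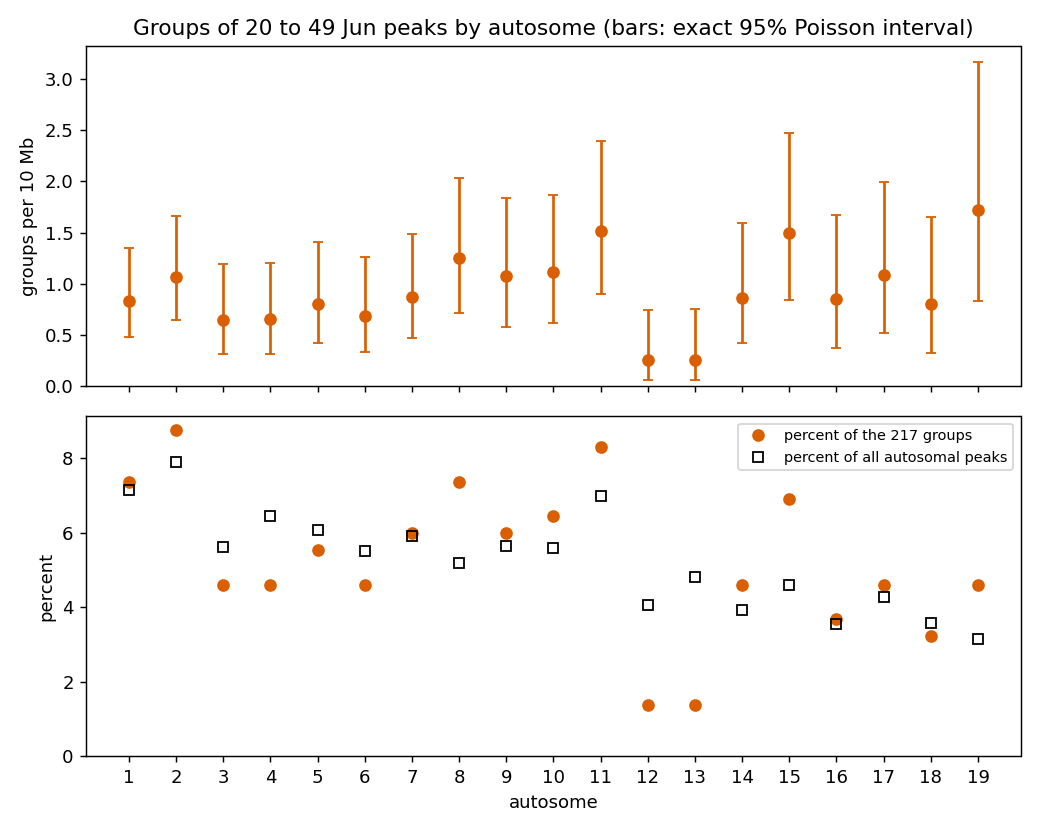
Upper panel, groups of 20 to 49 peaks per 10 Mb on each autosome with exact 95% Poisson intervals; lower panel, each autosome's percentage of the 217 groups (filled circles) and of all autosomal peaks (open squares). Chromosomes 12 and 13, with 3 groups each, lie lowest in both, at 1.38% of the groups.

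The other chromosomes had these fullest groups. Chromosome 13 had 42 peaks in 101 kb (56648806 to 56750135), next to a group of 41 peaks (45978509 to 46072540) and one of 26 (114377435 to 114420933), which are its 3 groups. Groups of 39 peaks lay on chromosome 5 (125580504 to 125675506) and chromosome 11 (79453612 to 79524905). Groups of 37 peaks lay on chromosome 10 (96072638 to 96123231) and chromosome 19 (25458044 to 25519770), and one of 36 on chromosome 15 (83234608 to 83329874). The fullest groups of chromosomes 8 (86714262 to 86781240), 12 (110806366 to 110873102) and 17 (3416864 to 3471067) had 35 peaks, as did the one of chromosome 6 named above. Chromosome 14 reached 30 peaks in its longest group. Chromosome 16 reached 26, in 4 of its 8 groups, the first at 31878079 to 31902376.

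Neighbouring groups were usually several Mb apart. For 198 neighbouring pairs the distance between facing ends had a median of 4.49 Mb (3.33 to 6.60 Mb), with the central 50% between 1.12 and 11.7 Mb; a chain of 50 or more peaks could lie between. The nearest other group of 20 to 49 peaks was within 1 Mb for 78 groups (35.9%), within 100 kb for 26 (12%) and more than 10 Mb away for 36 (16.6%). The most remote was the group of 21 peaks on chromosome 12 (8919648 to 8976856), 65.9 Mb from the next, followed by the last group of chromosome 13 at 57.6 Mb and the second group of chromosome 12 (74826975 to 74920484) at 35.9 Mb.

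Some groups followed each other so closely that a slightly longer chaining distance would have joined them. On chromosome 10 the ends of 2 groups were 10121 bp apart (76051415 to 76085325 and 76095447 to 76116284), and another began 15443 bp further on (76131728 to 76198016). Together these 3 held 82 peaks in 147 kb. A pair on chromosome 8 was 10889 bp apart (109972419 to 110054918 and 110065808 to 110087967) and one on chromosome 19 was 11631 bp apart (47291300 to 47367170 and 47378802 to 47462588). Linking groups of 20 or more peaks within 100 kb of each other gave 16 runs with 33 of the 217 groups, a distance chosen after seeing the data. In 6 of these runs there were 3 groups. Besides chromosome 10 they were on chromosome 5 (125483788 to 125764658, 80 peaks), chromosome 11 (116924363 to 117229034, 90 peaks) and chromosome 15 (59334119 to 59593583, 74 peaks). On chromosomes 1 and 7 the middle group of the run was itself larger, with 136 peaks between groups of 21 and 20, and with 73 peaks between groups of 25 and 27. In all, 7 groups had a chain of 50 or more peaks within 100 kb, the nearest at 13078 bp on chromosome 15 (27488166 to 27531990).

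Peak width, which did not enter the choice of groups, was more spread in the groups than in smaller chains. The median was 118 bp (95% interval 117 to 120), against 115 bp (114 to 115) in chains of 5 to 19 peaks, 113 bp in chains of 2 to 4, 111 bp for lone peaks and 128 bp (123 to 131) in chains of 50 or more. The lower quartile was about the same, 87.5 bp in the groups and 88 bp in chains of 5 to 19, while the upper quartile was 175 against 157 bp. Peaks of 200 bp or more were 20.9% of the peaks in the groups (19.8 to 21.9%), 16.0% in chains of 5 to 19 (15.6 to 16.4%), 9.20% of lone peaks (8.79 to 9.63%) and 28.0% in chains of 50 or more (25.9 to 30.1%). Narrow peaks, under 50 bp, were also more frequent, with 8.14% (7.45 to 8.86%) against 6.55% (6.29 to 6.81%) in chains of 5 to 19 and 5.39% of lone peaks. The surplus of narrow peaks over chains of 5 to 19, of 1.59 percentage points, was 0.601 points (-0.582 to 1.92) with chaining at 5 kb, 0.293 points (-0.0761 to 0.676) at 20 kb and -0.0012 points after merging peaks within 1000 bp, so it was not kept under these settings. The surplus of wide peaks, of 4.85 points, was 10.3, 2.37 and 11.5 points under the same settings. Merging makes wider regions and takes away narrow peaks by construction, so its values for both surpluses follow from it in part.

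Wide peaks went with crowding inside the groups. Where the nearer neighbour's midpoint was under 300 bp away, 31.6% of 614 peaks were wide (27.9 to 35.4%). Geometry sets part of this share, since peaks with midpoints 200 to 300 bp apart can overlap only if at least 1 is over 200 bp. The 164 overlapping neighbours of the groups were not set apart, so their part in these shares was not tested. The share was 24.5% at 300 to 500 bp, 22.4% at 500 to 1000 bp, 18.1% at 1000 to 2000 bp and 11.6% (9.79 to 13.6%) of 1158 peaks beyond 2000 bp. Place in the list also differed, with medians of 55491.5, 60483, 50008, 47170 and 46052.5 from the shortest distances to the longest. These shares were not read within sections of the list, so the part of place in them was not tested. Between groups, median distance and median width had a Spearman's rho of -0.28 over the 217 groups, which share 1 library. The depth behind the peaks is unknown, and its part in these widths was not tested.

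Nearly all groups mixed wide and narrow peaks. At least 1 wide peak was present in 215 groups and at least 1 peak under 50 bp in 191. Over all autosomal peaks 14.0% were wide and 6.30% were under 50 bp, so with 20 or more peaks per group these counts largely follow from group size. The 2 groups without a wide peak were on chromosome 4 (125773987 to 125828073, 21 peaks, median 80 bp, the lowest of the 217) and chromosome 15 (77628206 to 77688475, 20 peaks). The highest median, 273 bp, was that of the first group in the close trio on chromosome 10, in which 17 of 26 peaks were wide, while its 2 neighbours had medians of 130 and 152 bp. Medians of 201 bp were found in the compact group of chromosome 5 (125483788 to 125502950, 11 of 21 wide) and in the fullest group of chromosome 17 (18 of 35 wide). The 2 groups that follow the compact one on chromosome 5 had medians of 110 and 102.5 bp. Differences between groups took up little of the spread of widths, with an intraclass correlation of log2 width of 0.021, against 0.029 in chains of 5 to 19 peaks.

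The deposited list is not in genomic order, and what orders it is not stated. Peaks of the groups stood at all places from row 12 to row 99162, the last, with a median place of 51638 (50068 to 52905) of 99162. Medians were 48513 (47952 to 49082) in chains of 5 to 19 peaks, 51342.5 for lone peaks and 58136 (55785 to 60847) in chains of 50 or more. The median hides a pattern with more peaks at both ends. Of the peaks in groups, 13.9% (13.0 to 14.8%) stood in the first 10% of the list, 8.24% and 8.17% in the third and the fourth 10%, and 11.8% (11 to 12.7%) in the last. Lone peaks had 6.90% in the first 10% and 10.1% in the last, and chains of 5 to 19 had 11.8% and 10.1%. Chains of 50 or more peaks had 9.84% (8.49 to 11.3%) in the first 10% and 13.0% in the last. The surplus in the first 10% over chains of 5 to 19, of 2.08 percentage points (1.21 to 2.99), was not kept with chaining at 5 kb. It was -0.81 points there, with an interval of -2.22 to 0.717 that includes both signs. All these intervals take the peaks of a group as independent and are too narrow where they share a part of the list. Under the other alternatives the surplus stayed positive, from 1.78 points for groups of 15 to 49 to 3.05 points after merging peaks within 1000 bp. For groups of 15 to 49 the comparison was with chains of at least 5 and under 15 peaks. Merged regions were given the earliest of their rows.

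**Figure D5:**
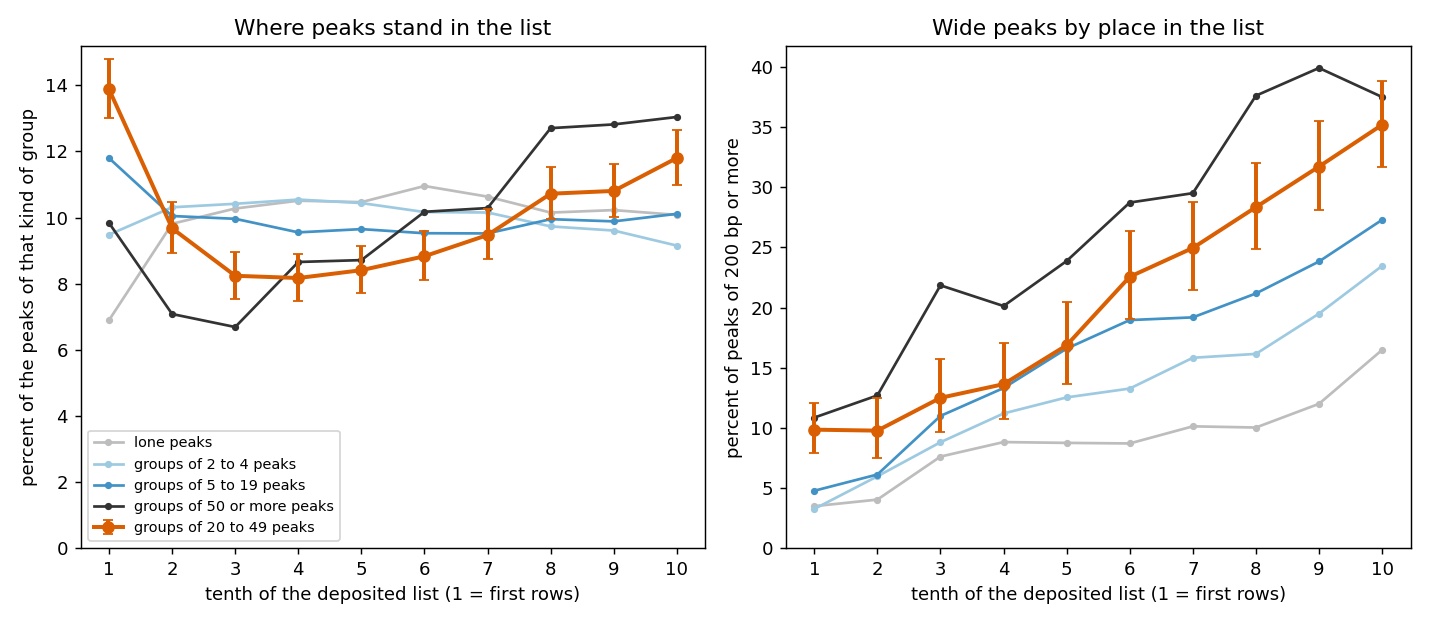
Left, percentage of the peaks of each kind of chain that stand in each 10% section of the deposited list; right, percentage of those peaks that are 200 bp or wider; orange points with exact 95% binomial intervals are the groups of 20 to 49 peaks. The groups are high in the first section (13.9%), low in the third and the fourth, and high again in the last (11.8%), and their share of wide peaks goes from 9.85% to 35.2%.

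Width and place in the list were linked, so the share of wide peaks was also read within each 10% of the list. In the groups it went from 9.85% (7.90 to 12.1%) in the first 10% to 35.2% (31.7 to 38.9%) in the last. It was above that of chains of 5 to 19 peaks in 10 of 10 sections, by 0.276 to 7.90 percentage points, and below that of chains of 50 or more in 10 of 10. In the first section the values were 9.85% and 4.78% (4.14 to 5.48%). In the third to the sixth sections the intervals of the groups and of chains of 5 to 19 overlapped, and in the other 6 sections they did not. The intervals of the groups and of chains of 50 or more overlapped in 10 of 10 sections, so the order of these shares was not settled in any section. Since these intervals take the peaks of a group as independent, they are too narrow where such peaks have like widths.

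Single groups drew their peaks from the whole list. Of the 217, 206 (94.9%) had a peak in the first 10% and 192 (88.5%) had peaks in both the first and the last 10%; 211 had peaks in at least 8 of the 10 sections. Over all autosomal peaks 10.1% stood in the first 10% and 9.90% in the last. With a median of 26 peaks per group, these counts thus largely follow from group size. The median place of a group, which tends to the middle when many peaks are spread over the list, was in its middle 50% for 200 groups. The earliest median, 17365, belonged to 21 peaks on chromosome 10 (80391432 to 80430278), where the first 13 peaks had a median of 16440 and the last 4 one of 66513. It was followed by 18200 on chromosome 7 (86083921 to 86147099), 19264 on chromosome 8 (109972419 to 110054918), 19370 on chromosome 14 (26652017 to 26688841) and 20252 on chromosome 3 (90377337 to 90433428). The largest part in the first 10% was 8 of 21 peaks, in the group before the 136-peak chain of chromosome 1 (92525807 to 92574373).

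At the other end, the latest median was 80926, for the 35 peaks on chromosome 12 (110806366 to 110873102), of which 11 stood in the last 10% and 17 were wide. Then came 78271 on chromosome 4 (151355611 to 151401802), 76373 on chromosome 15 (27488166 to 27531990), 76343.5 for the fullest group on chromosome 7 and 75874 for the compact group on chromosome 5. That last group had its earliest peak at row 36335, the latest start of the 217. Early and late groups could be neighbours: on chromosome 8 the group with a median of 19264 lay 10889 bp from one with 55193.5. Median place and median width had a Spearman's rho of 0.33 over the 217 groups, and the intraclass correlation of place was 0.040, against 0.052 in chains of 5 to 19 peaks and 0.080 in chains of 50 or more. The earliest listed peak of a group lay in its fullest 10 kb in 63 of 217 groups (29%, 23.1 to 35.6%) and at one of its ends in 15, while such a window held a mean of 35.4% of a group's peaks.

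Peaks of the same group often stood close together in the late part of the list. In the groups, 651 of 5923 peaks (11%, 10.2 to 11.8%) had another peak of their own group within 10 rows of the 99162, and 110 pairs were in consecutive rows. In the first 5 sections of the list this held for 92 of 2865 peaks (3.21%, 2.6 to 3.92%) and in the last 5 for 559 of 3058 (18.3%, 16.9 to 19.7%), 5.69 times as large a share. It was 0.730% in the first section, 10.5% in the sixth and 22.2% (19 to 25.6%) in the ninth. The same step was seen in chains of 5 to 19 peaks (1.31% and 6.38%) and of 50 or more (7.13% and 29.8%); larger chains have more peaks that can meet. Intervals of these shares are too narrow, because a peak near another in the list makes both count. Of the 343 pairs within 10 rows, 35 (10.2%) were next neighbours on the chromosome, against 6.89% of all 82777 pairs of peaks of one group. Their median distance was 12.3 kb, against 17.9 kb over all such pairs. In the tightest group, on chromosome 16, rows 97013, 97014 and 97016 belonged to peaks at 92674608, 92680756 and 92688107, of 381, 38 and 118 bp. The group of 45 peaks on chromosome 2 from 173045124 had the most, with 16 peaks in such pairs. The distance of 10 rows was chosen after seeing the data, and what places these peaks together was not tested.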

How the data were processed

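The authors deposited 1 list of Jun peaks with chromosome, start and end in bp and no score. Their build is mm9, per the submitters' processing notes. Which aligner and peak caller were used, and how the input entered, is not given in the sources used here. Since the list itself names no sample, it was assigned to the series' 1 Jun library. No read counts are given, so depth is unknown. Midpoints were chained in Python 3.11.15 (numpy 2.4.6, pandas 2.3.3); chaining was tested on simulated data with planted groups. Positions are printed counted from 1. Intervals are exact at 95% (scipy 1.17.1): Poisson for counts, binomial for shares and, through order statistics, for medians. Those of surpluses in percentage points are not exact. They are the binomial limits of the groups less the share in the comparison chains, whose own counting error is left out. No test was made. The members and lists were chosen with earlier results of these data known. Groups were named by rank in peak number, span, spacing, list place and distance, and as the fullest of each autosome; those outside this rule are given as chosen after their values were seen or as runs of close groups. Planned counts of genes and of an AP-1 motif at the groups need mm9 annotation and sequence and were not run.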

Additional observations from a re-analysis of the deposited data

How the results depend on the processing

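Each of 17 results was recomputed under 8 alternatives, and 1 of them under 2 more that were chosen after seeing the data; of 136 values 62 stayed within the 95% interval of the reported value or, for counts, within 1.5 times of it, 72 moved further and 2 changed sign. Measuring gaps from edge to edge moved none. Chaining at 5 kb gave 68 groups with 1853 peaks, a median span of 33.2 kb, spacing of 895.5 bp, width of 129 bp, 29.5% wide peaks (10.3 points above chains of 5 to 19), a first 10% surplus of -0.81 points, a median place of 59157, 11.5 Mb between groups, 0.0717 groups per Mb on the densest autosome (chromosome 10) and a ratio of row neighbours, last over first 50% of the list, of 7.99. Chaining at 20 kb gave 609 groups, 17309 peaks, 111 kb, 2169.5 bp, 115 bp, 16.5% wide (2.37 points), place 48183, 1.41 Mb, 0.523 per Mb (chromosome 11) and a row ratio of 3.99. Merging peaks within 1000 bp gave 52 groups, 1342 regions, 92.8 kb, 3225.75 bp, 168 bp, 46.3% wide (11.5 points), -0.0012 points for narrow ones, 3.05 points in the first 10%, place 35560 (the earliest of the merged rows), 14.9 Mb, 0.0517 per Mb and a row ratio of 2.88; wider and fewer regions follow by construction. Groups of 15 to 49 numbered 450 with 9798 peaks, 46 kb, 19.8% wide, 1.98 Mb, 0.371 per Mb (chromosome 11) and a row ratio of 5.05. Groups of 25 to 49 numbered 118 with 3780 peaks, 67.0 kb, 1215 bp, 120.5 bp, 22.7% wide (6.67 points), place 53437.5 and 10.0 Mb. Joining overlapping peaks gave 1373.25 bp, 19.8% wide and a row ratio of 5.19. Peaks of at least 50 bp gave 174 groups, 4757 peaks, 1408.5 bp, 125 bp, 23.2% wide and a row ratio of 6.73; the share of narrow peaks has no value there. The row ratio was 6.81 for at most 3 rows apart and 3.72 for at most 50. No paired analysis was possible because the series has 1 Jun library. The cause of these changes was not tested. Without depth, sequence between peaks cannot be taken as unbound.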

Other observations

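Peak widths in the groups stopped short of 500 bp. There were 166 peaks in the groups from 400 to under 450 bp and 145 from 450 to under 500 bp, none from 500 to under 550 bp and 1 above that, and over all autosomal peaks these numbers were 1592, 1425, 2 and 9. Peaks of 494 bp or more numbered 13 in the groups, and 12 of these measured 494 to 498 bp, on chromosomes 1, 2, 4, 5, 6, 7, 9, 16, 18 and 19. The exception was a peak of 664 bp in the third group of the close trio on chromosome 10 (76173394 to 76174057).

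The 5 earliest rows that belong to a group were peaks of 49 to 121 bp. Row 12 of the list is a peak of 100 bp in the longest group, on chromosome 9 (107537798 to 107537897), row 27 one of 49 bp on chromosome 15 (76034632 to 76034680) and row 28 one of 100 bp on chromosome 13 (114408795 to 114408894), in the last group of that chromosome. Rows 54 and 68 belong to 1 group of 26 peaks on chromosome 16 (92423810 to 92423930 and 92444068 to 92444148). The last row of the list also lies in a group, of 32 peaks on chromosome 10 (79592906 to 79642449). Over the 217 groups the earliest listed peak had a median width of 106 bp and the latest listed one 137 bp, of which 9.68% (6.09 to 14.4%) and 34.6% (28.3 to 41.3%) were 200 bp or wider, close to the 9.85% and 35.2% of all peaks of the groups in the first and the last 10% of the list.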
